A study of Mus musculus with 3 samples.

Results

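The 10 leading genes of age-associated thymic epithelial cells called aaTEC1-like were followed here across 3 single-cell libraries of the aged mouse thymus: BC006965, Otog, Wfdc18, Hpse2, Chst9, Tmod1, Kif19a, Stc1, Plet1 and Rhoj. These 10 members, of 32293 features, were chosen from their measured values in these same cells. Their levels and shared detection in the epithelium are therefore a description with no test. The cells in which they were read were selected on other genes: an epithelial-gated barcode had 2 or more molecules (unique molecular identifiers, UMIs) of Epcam, which encodes an epithelial adhesion protein, and 0 of Pecam1 (endothelial) and Pdgfra (fibroblast). There were 408 such barcodes of 8616 called in the Foxn1Lin female library, 436 of 3583 in Foxn1Lin male and 917 of 5478 in wild-type male.

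The libraries hold sorted non-hematopoietic (CD45-) thymus cells of untreated C57BL/6 mice at 20 months of age, with 10 to 15 thymi pooled and 1 library per group. In both Foxn1Lin groups a constitutive Cre under the Foxn1 promoter removes a stop cassette from a Rosa26 tdTomato reporter, so that a cell with past Foxn1 expression, and its progeny, keep the reporter. The wild-type mice carry neither Cre nor reporter. The genotype, the sex of the Foxn1Lin mice, the pool of animals and the library cannot be told apart, the sort of the wild-type library is labeled CD45- in one field and CD45-PECAM1+ in another, and the text on tissue preparation speaks of female mice throughout.

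Thymic epithelial cells (TEC) make the cortex and medulla in which T cells mature. Cortical TEC use the proteasome subunit Psmb11 to make peptides for positive selection, mTEC2 cells of the medulla use Aire to display tissue antigens, and mTEC1 cells draw thymocytes in with the chemokine Ccl21a. Age-associated TEC appear as the thymus involutes and form dense epithelial areas with few thymocytes. Plet1 encodes a glycolipid-anchored surface protein best known as a marker of thymic epithelial progenitors.

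The median depth of epithelial-gated barcodes was 11138 UMIs in the female lineage-traced library, 12670 in the male one and 16836 in wild type, the order kept wherever 3 values follow each other. Because a deeper barcode shows more genes, every share of barcodes below is given after each barcode was randomly thinned to 4000 UMIs, which kept 351, 372 and 844 epithelial-gated barcodes and left out 57, 64 and 73. Levels are UMIs per 1000000 UMIs (CPM), summed over the unthinned barcodes of a gate. Intervals are exact 95% intervals for counting error only, and a count of 0 is read as allowing 3 counts, a limit that lies below the upper end of the exact interval. Between 3 and 14 barcode sequences were shared by a pair of libraries. Empty droplets, which carry free RNA, served as a comparison. Their CPM is that of the free RNA itself, and how much of it a called barcode held was not estimated. A level below that of empty droplets is therefore not read as background alone. Their counts come from matrices of another Cell Ranger version (4, against 7.0.1 for called barcodes). The part of this difference in the comparisons was not tested.

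The members differ in what their products do. Otog encodes otogelin, a large glycoprotein of the membranes over the inner ear epithelia, and lies on chromosome 7 (GRCm38, 46240987 to 46311434, plus strand). Wfdc18 encodes a small secreted protein with a WAP domain (chromosome 11, 83709015 to 83711348, plus strand), and Stc1 the secreted glycoprotein stanniocalcin-1 (chromosome 14, 69029238 to 69041804, plus strand). Hpse2 encodes heparanase-2, which binds heparan sulfate without cutting it (chromosome 19, 42786539 to 43388355, minus strand). Plet1 lies on chromosome 9 (50494525 to 50505482, plus strand). Tmod1 encodes tropomodulin-1, a cap of the pointed ends of actin filaments (chromosome 4, 46038935 to 46116032, plus strand), Kif19a a microtubule motor known from cilia (chromosome 11, 114765388 to 114790739, plus strand), and Rhoj a small GTPase best known from endothelium (chromosome 12, 75308322 to 75401456, plus strand). BC006965 is a noncoding transcript on chromosome 11 (112663927 to 112781976, minus strand). Positions are those of GENCODE vM21 and cover the whole gene, exons and introns.

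RefSeq promoter sequences (GRCm38.p6) were at hand for 7 of the 10 members. The 250 bases before the start of 4 of them are printed, 5′ to 3′ on the strand of the gene. They set 2 members that were often found in the same barcodes (BC006965 and Otog) beside 2 less tied to the other members (Wfdc18 and Plet1). The window of BC006965 lies before the start of its RefSeq transcript, inside the longer GENCODE gene, whose span reaches further upstream. Capitals mark a match to 1 of 6 motifs searched on both strands. They were the core GACGC bound by Foxn1, the AP-1 motif TGANTCA, the Grainyhead motif AACNGGTT, the motif of TEAD factors, written GGAATG, that of RBPJ, written GTGGGAA, and the TATA box TATAAA.
BC006965, chr11:112711357-112711606, minus strand: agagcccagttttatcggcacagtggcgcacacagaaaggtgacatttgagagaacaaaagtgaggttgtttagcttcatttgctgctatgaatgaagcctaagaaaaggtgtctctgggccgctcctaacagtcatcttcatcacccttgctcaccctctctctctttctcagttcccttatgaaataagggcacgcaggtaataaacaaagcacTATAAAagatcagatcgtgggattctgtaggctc
Wfdc18, chr11:83708754-83709003, plus strand: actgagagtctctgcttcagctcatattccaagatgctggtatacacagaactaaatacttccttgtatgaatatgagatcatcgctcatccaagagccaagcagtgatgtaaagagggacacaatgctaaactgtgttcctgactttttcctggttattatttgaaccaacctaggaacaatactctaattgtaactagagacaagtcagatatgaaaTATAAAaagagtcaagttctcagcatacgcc
Plet1, chr9:50494275-50494524, plus strand: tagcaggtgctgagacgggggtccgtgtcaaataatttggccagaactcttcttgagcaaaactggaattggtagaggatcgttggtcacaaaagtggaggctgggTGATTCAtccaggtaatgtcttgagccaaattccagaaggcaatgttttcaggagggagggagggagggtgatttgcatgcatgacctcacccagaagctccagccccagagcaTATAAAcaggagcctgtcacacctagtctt
Otog, chr7:46240737-46240986, plus strand: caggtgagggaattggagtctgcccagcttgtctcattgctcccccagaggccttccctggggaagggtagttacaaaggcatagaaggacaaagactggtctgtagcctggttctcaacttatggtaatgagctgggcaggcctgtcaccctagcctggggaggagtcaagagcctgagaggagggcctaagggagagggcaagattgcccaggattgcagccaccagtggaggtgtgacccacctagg

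Of the 7 members, BC006965, Wfdc18 and Plet1 had TATAAA on their own strand, beginning 34, 31 and 30 bases before the start. Of all 32851 promoters of that length, 12.4% held TATAAA anywhere on either strand, and 568 (1.73%) held it on the gene strand beginning 36 to 26 bases before the start, a window set after the matches had been seen. Plet1 also held TGANTCA, found in 6.75% of all promoters, at 144 to 138 bases before its start. Tmod1 held GGAATG on the opposite strand, a motif in 12.6% of promoters. The windows of Otog, Hpse2 and Rhoj held none of the 6 motifs, and no member's window held the Foxn1, Grainyhead or RBPJ motif, which stand in 22.6%, 1.79% and 5.42% of all promoters. The Otog window had 57.2% G and C but 0 CpG, and that of Tmod1 64.0% and 17 CpG, against medians of 52.4% and 6 over all promoters.

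In each library, 8 members were at higher CPM in the epithelial gate than in the endothelial and fibroblast gates, while Rhoj was lower there than in both and Stc1 was at or below its endothelial level. The gates outside the epithelium had 0 Epcam UMIs: endothelial with 2 or more Pecam1 and 0 Pdgfra (1995, 806 and 849 barcodes), fibroblast with the reverse (1600, 802 and 1618), mural with Rgs5 or Myh11 (473, 435 and 375), and mesothelial with Upk3b (266, 0 and 34).

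**Figure D1:**
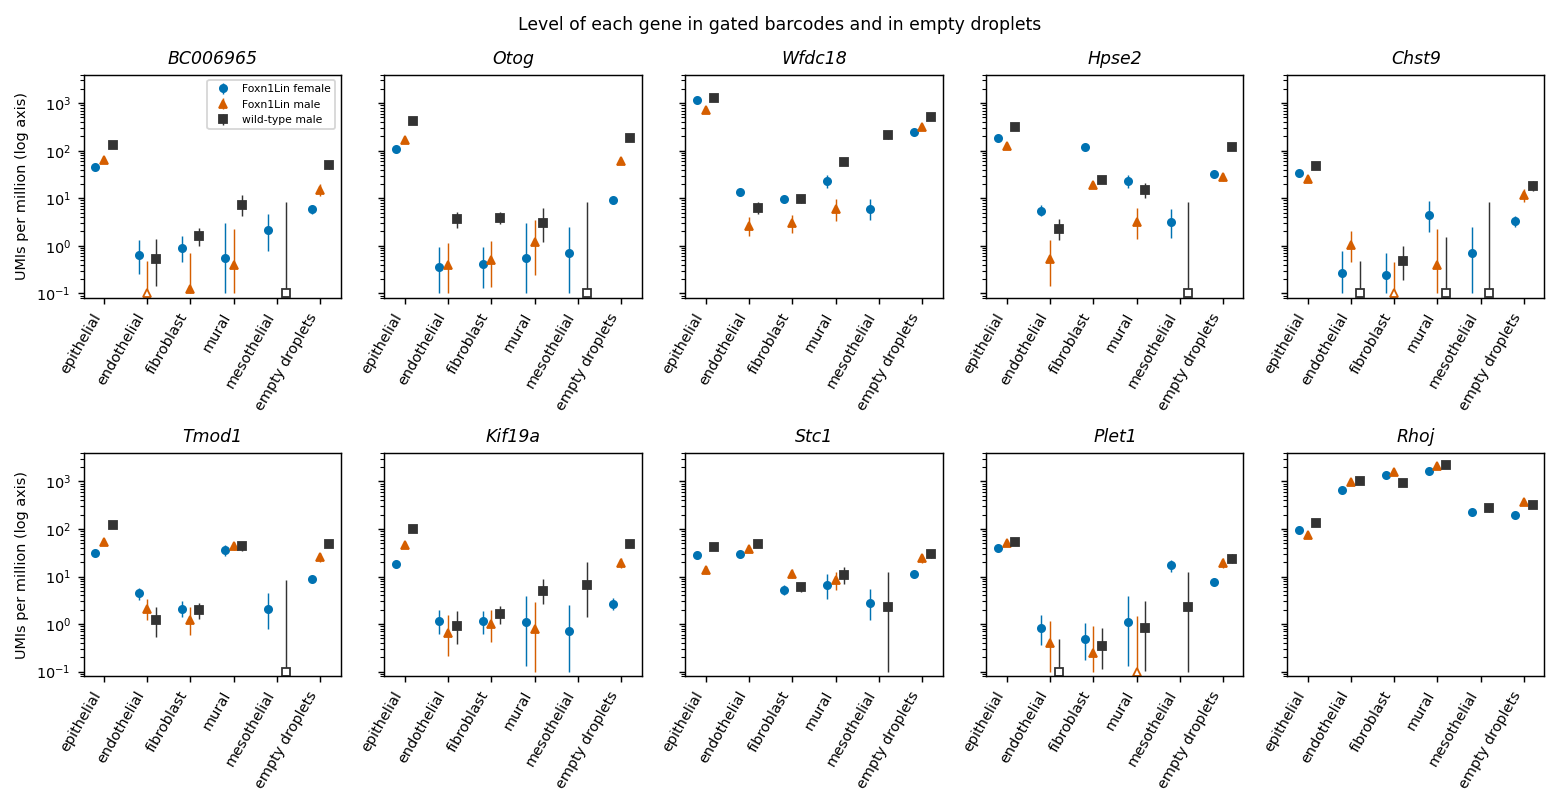
Level of each of the 10 genes as UMIs per 1000000 UMIs (log axis) in epithelial, endothelial, fibroblast, mural and mesothelial gates and in empty droplets. Each point is 1 library with its exact 95% Poisson interval, an open symbol at the axis floor marks 0 UMIs, and Foxn1Lin male had no mesothelial-gated barcode. Otog, Kif19a, BC006965, Chst9 and Plet1 stand highest in the epithelial gate, and Rhoj stands lowest there.

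Otog was at 108, 167 and 428 CPM in the epithelial gate, from 618, 1172 and 8233 UMIs. It was at 0.362 to 3.58 CPM in the endothelial gate and at 0.406 to 3.88 CPM in the fibroblast gate. Empty droplets held 9.05, 59.7 and 190 CPM of Otog, so the stromal gates were below the free RNA and the epithelial gates were above it in all 3 libraries.

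Kif19a and BC006965 followed the same order of gates. Kif19a was at 18.5, 47.2 and 100.4 CPM in the epithelial gate and at no more than 1.59 CPM in the endothelial and fibroblast gates. BC006965 was at 44.5, 62.8 and 133 CPM in the epithelial gate and at 0 to 1.59 CPM in those 2 gates. For these 2 genes and for Otog, the epithelial CPM was lowest in Foxn1Lin female, intermediate in Foxn1Lin male and highest in wild type, with intervals that did not overlap, and their level in empty droplets had the same order of libraries.

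Chst9 (chromosome 18, 15451924 to 15760157, minus strand), which encodes a Golgi sulfotransferase acting on N-acetylgalactosamine, was at 34.0, 25.2 and 48.6 CPM in the epithelial gate and at 0 to 1.05 CPM in the endothelial and fibroblast gates. Plet1 was at 39.4, 50.6 and 53.7 CPM in the epithelial gate and its levels there were the closest between libraries of the 10 members (highest over lowest 1.36), with overlapping intervals in Foxn1Lin male and wild type. Outside the epithelium, Plet1 stood out in the mesothelial gate of Foxn1Lin female at 17.2 CPM (49 UMIs, interval 12.7 to 22.8), above 7.78 CPM in the empty droplets of that library.

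Wfdc18 was at 1148, 721 and 1294 CPM in the epithelial gate. Up to 1048 of its UMIs came from 1 wild-type barcode. Its free RNA in empty droplets came to 249, 317 and 522 CPM, and endothelial and fibroblast gates had 2.63 to 13.4 CPM. The 34 wild-type mesothelial-gated barcodes held 213 CPM (94 UMIs), below the level in empty droplets.

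Hpse2 and Tmod1 were also present outside the epithelium. Hpse2 was at 189, 128 and 316 CPM in the epithelial gate and at 117, 19.1 and 24.3 CPM in the fibroblast gate, against 5.52, 0.526 and 2.26 CPM in the endothelial gate. The fibroblast level exceeded that of the empty droplets (32.9 CPM) in Foxn1Lin female, and was below it in the other 2 libraries. Tmod1 was at 31.7, 53.9 and 119 CPM in the epithelial gate and at 35.4, 43.5 and 43.2 CPM in the mural gate. In Foxn1Lin female the epithelial and mural intervals of Tmod1 overlapped, and in wild type they did not.

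Stc1 was at 28.1, 14.0 and 41.0 CPM in the epithelial gate and at 30.2, 38.0 and 49.5 CPM in the endothelial gate. The intervals of both gates overlapped in Foxn1Lin female, while in the other 2 libraries the endothelial gate was higher. In Foxn1Lin male, the epithelial level of Stc1 was below that of empty droplets (24.1 CPM). Rhoj was at 95.2, 74.1 and 135 CPM in the epithelial gate. It was at 662, 989 and 1039.7 CPM in the endothelial gate, at 1348, 1614 and 912 CPM in the fibroblast gate and at 1658, 2134 and 2264 CPM in the mural gate. The epithelial level of Rhoj was below that of empty droplets (195, 368 and 312 CPM) in all 3 libraries.

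The Epcam minimum sets which barcodes count as epithelial. Those with just 2 Epcam UMIs (72, 47 and 114) held Otog at 1.91, 109 and 37.8 CPM and Plet1 at 47.8, 33.6 and 27.2 CPM. Those with 1, which were left out (186, 89 and 161), held Otog at 8.48, 217 and 81.8 CPM and Plet1 at 16.02, 13.2 and 7.44 CPM. Rhoj was at 34.4, 50.4 and 79.6 CPM in the former and at 168, 999.6 and 697 CPM in the latter.

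The 1 comparison that could be tested, given how the members were chosen, was between endothelial-gated and fibroblast-gated barcodes, which hold no Epcam. Counts were summed per library and gate and compared over 15129 genes with the edgeR quasi-likelihood test with the library as a block (3 sums against 3). Stc1 was higher in endothelial-gated barcodes, by 2.44 ± 0.300 (SE) on the log2 scale (edgeR, Benjamini-Hochberg adjusted p = 0.00340), and it was higher in all 3 libraries. Hpse2 was higher in fibroblast-gated barcodes, with a log2 difference of -4.21 ± 0.329 (SE, edgeR adjusted p = 0.00107), again in all 3 libraries. Of the 7 members that passed the filter on low counts, 1 was called higher in endothelial-gated and 1 higher in fibroblast-gated barcodes, and the calls over all genes were 19.0% and 21.3% in those directions. BC006965, Chst9 and Plet1 had too few UMIs in these gates to enter the test. Rhoj did not pass it (log2 difference -0.51 ± 0.289, edgeR adjusted p = 0.219), being higher in fibroblast-gated barcodes of both Foxn1Lin libraries and in endothelial-gated barcodes of wild type.

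After thinning, Plet1 was detected in 30 of 351 (8.55%), 38 of 372 (10.2%) and 98 of 844 (11.6%) epithelial-gated barcodes, with overlapping intervals. Barcodes with 0 Epcam, at a median of 7340, 8581 and 8323 UMIs before thinning against 13055, 14242 and 18049 in the epithelium, had Plet1 in 0.469%, 0.0930% and 0.236%. BC006965 was found in 10.5%, 10.5% and 19.0% of epithelial-gated barcodes, Otog in 7.69%, 9.95% and 16.5%, Kif19a in 6.84%, 10.2% and 19.3%, and Tmod1 in 9.40%, 11.02% and 19.4%. These 4 genes and Chst9 (5.41%, 4.57% and 8.65%) were in at most 3.67% of barcodes with 0 Epcam. Wfdc18 was in 21.9%, 18.0% and 27.6% of epithelial-gated barcodes against 1.21% to 3.48% of those with 0 Epcam.

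The other 3 members were Rhoj, Stc1 and Hpse2. Rhoj was in 13.1%, 12.4% and 16.1% of epithelial-gated barcodes but in 79.5%, 87.5% and 79.4% of barcodes with 0 Epcam. Stc1 was in 6.27%, 2.42% and 10.9% of epithelial-gated barcodes and in 3.82%, 5.16% and 4.38% of those with 0 Epcam, so that in Foxn1Lin male it was the less frequent in the epithelium. Hpse2 was in 14.2%, 12.1% and 19.0% against 7.28%, 0.698% and 3.74%.

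The number of members per epithelial-gated barcode was low in most. Barcodes with none of the 10 genes made up 55.6% (195), 54.3% (202) and 39.8% (336), and those with just 1 made up 25.4%, 29.3% and 28.8%. Only 6, 5 and 26 barcodes had 3 members, and the counts were higher again at 4 (9, 12 and 42 barcodes) and at 5 (10, 13 and 40). The highest number found in 1 barcode was 9, 9 and 10.

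**Figure D2:**
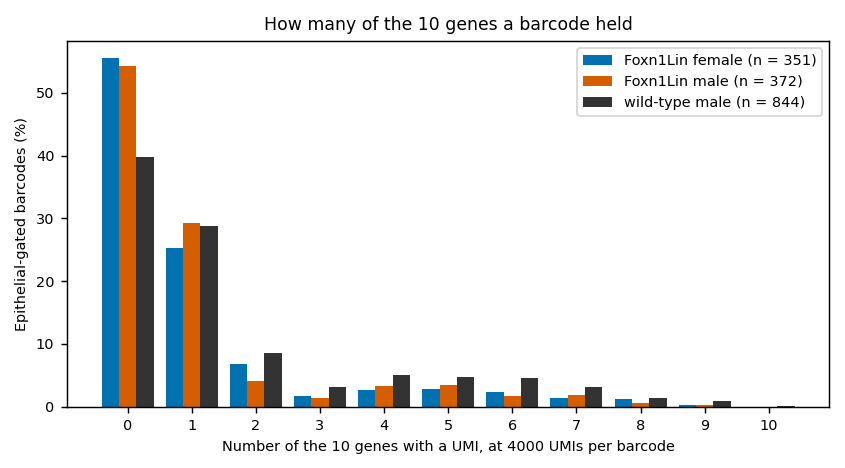
Share of epithelial-gated barcodes (%) by how many of the 10 genes had a UMI after thinning to 4000 UMIs, with 1 bar per library. The bars fall to a low at 3 genes (6, 5 and 26 barcodes) and stand higher at 4 and 5 in each library.

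Barcodes with 3 or more members, called member-rich, were 12.3% of the epithelium in Foxn1Lin female (43 barcodes, interval 9.01% to 16.1%), 12.4% in Foxn1Lin male (46, 9.20% to 16.1%) and 22.9% in wild type (193, 20.1% to 25.9%). The wild-type interval did not overlap the other 2. With 1 library per group the spread between animals is unknown and this difference has no test.

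To keep a gene from defining the barcodes it is described in, each member was read in barcodes with 3 or more of the other 9 members and in barcodes with none of the other 9. BC006965 was in 73.8%, 72.1% and 72.7% of the first and in 2.50%, 0.980% and 3.45% of the second. Tmod1 was in 50.0%, 69.6% and 73.1% against 3.47%, 1.94% and 2.89%, and Kif19a in 45.0%, 72.1% and 75.5% against 0.510%, 0.980% and 1.75%. Otog, found in 44.7%, 71.1% and 64.3% against 0.510%, 0.980% and 0.885%, had 74.5%, 93.9% and 90.1% of its UMIs in the barcodes rich in the other members, which were 10.8%, 12.1% and 21.6% of the epithelium. All 4 were rare, at under 4% in each library, where no other member was found.

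Within the epithelium, Rhoj had the same contrast, although it was frequent elsewhere. It was in 68.3%, 72.1% and 57.0% of barcodes with 3 or more of the other members and in 5.80%, 5.61% and 4.00% of those with none. Its level was 666, 480 and 455 CPM in the first, above that of empty droplets, and 17.3, 17.8 and 14.4 CPM in the second. Chst9 (34.9%, 28.3% and 29.5% against 0.510%, 1.94% and 1.75%) and Stc1 (38.1%, 17.4% and 37.1% against 1.52%, 0% and 2.89%) were less often seen but had the same contrast. The 0 of 202 barcodes for Stc1 in Foxn1Lin male allows a share of up to 1.49% by 3 counts, and the exact interval reaches 1.81%.

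For Plet1, Hpse2 and Wfdc18 the contrast was smaller. Plet1 was in 33.3%, 24.4% and 23.9% of barcodes with 3 or more of the other members and in 4.88%, 9.01% and 5.35% of those with none, and 38.0%, 33.3% and 56.7% of its UMIs lay in the former. Hpse2 was in 53.5%, 41.9% and 41.7% against 8.02%, 9.82% and 15.2%. Wfdc18 was in 68.3%, 35.6% and 40.0% against 14.1%, 16.9% and 23.5%, so it was common in epithelial barcodes that held no other member.

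Pairs of members, read in the same barcodes and so no separate support, gave a similar order. For each pair, the number of barcodes with both was divided by the number that the product of the 2 shares gives, and the lowest of the 3 libraries was taken. That ratio cannot exceed 1 over the larger share, so a frequent gene such as Wfdc18 has a lower ceiling. The barcodes of a library share its preparation and, after thinning, have equal depth, and no test is given. Otog with Kif19a had the highest value (4.02, 151 barcodes in all), followed by Otog with Tmod1 (3.96) and BC006965 with Otog (3.95). Otog with Wfdc18 had the lowest (0.860, 49 barcodes), and Otog with Plet1 was next (1.05, 31 barcodes).

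**Figure D3:**
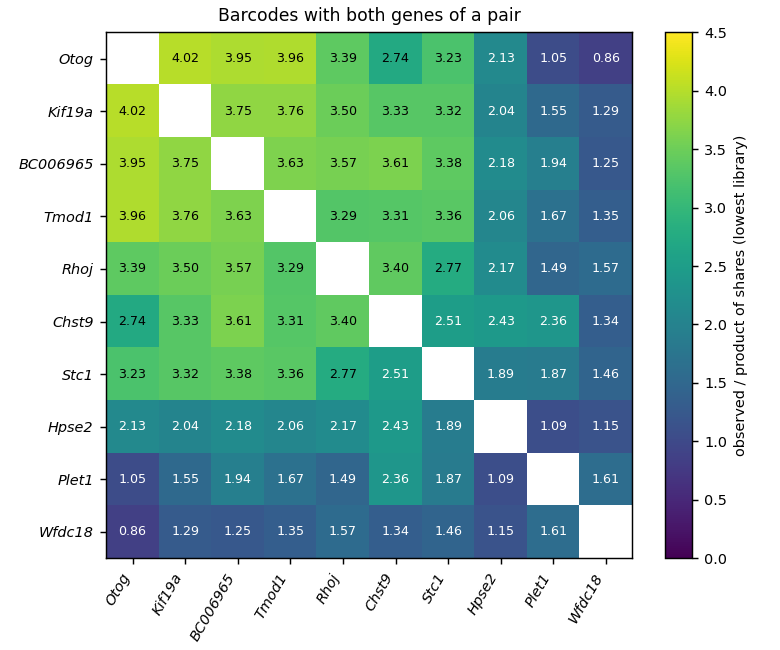
Barcodes with both genes of a pair, divided by the number from the product of their shares, in epithelial-gated barcodes at 4000 UMIs, with the lowest of the 3 libraries shown in each cell. Otog, Kif19a, BC006965 and Tmod1 form the block with values of 3.63 to 4.02, and Wfdc18 and Plet1 have the low values.

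Plet1-positive epithelial barcodes (30, 38 and 98) held the other 9 members more often than Plet1-negative ones (321, 334 and 746). The ratio of both shares had a median over the 9 members of 3.57, 1.81 and 2.21. Over 12366 other genes found in at least 1% of barcodes of each library, the same median was 0.944, 0.959 and 0.964. Chst9 was in 20.0%, 18.4% and 20.4% of Plet1-positive and in 4.05%, 2.99% and 7.10% of Plet1-negative barcodes, and BC006965 in 36.7%, 26.3% and 36.7% against 8.10%, 8.68% and 16.6%. Wfdc18 was in 53.3%, 28.9% and 57.1% against 19.0%, 16.8% and 23.7%. Otog was the weakest in wild type, at 17.3% against 16.4%, with overlapping intervals. In Foxn1Lin male, the intervals of Plet1-positive and Plet1-negative barcodes were separate for BC006965 and Chst9 alone. Chst9, BC006965 and Stc1 were at least 2-fold in all 3 libraries, 3 of 9, as were 0.687% of the other genes, and since the members were chosen on these cells nothing is read from that count.

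The Aire-positive barcodes (87, 68 and 172) held few of the 4 members most often found together. BC006965 was in 0, 0 and 1 of them (0%, 0% and 0.581%), against 14.0%, 12.8% and 23.7% of Aire-negative barcodes. Otog was in 0%, 0% and 4.07% against 10.2%, 12.2% and 19.6%. Kif19a was in 0%, 1.47% and 2.33% against 9.09%, 12.2% and 23.7%, and Tmod1 in 2.30%, 4.41% and 5.23% against 11.7%, 12.5% and 23.1%. Plet1 was in 1.15%, 1.47% and 1.74% against 10.98%, 12.2% and 14.1%. By 3 counts, the zeros of BC006965 and Otog allow shares of up to 3.45% and 4.41% in the 2 Foxn1Lin libraries, and the exact intervals reach 4.15% and 5.28%. Hpse2 and Wfdc18 were found in more of them: Hpse2 was in 14.9%, 10.3% and 15.1% of Aire-positive and 14.0%, 12.5% and 19.9% of Aire-negative barcodes, and Wfdc18 in 17.2%, 8.82% and 20.9% against 23.5%, 20.1% and 29.3%.

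**Figure D4:**
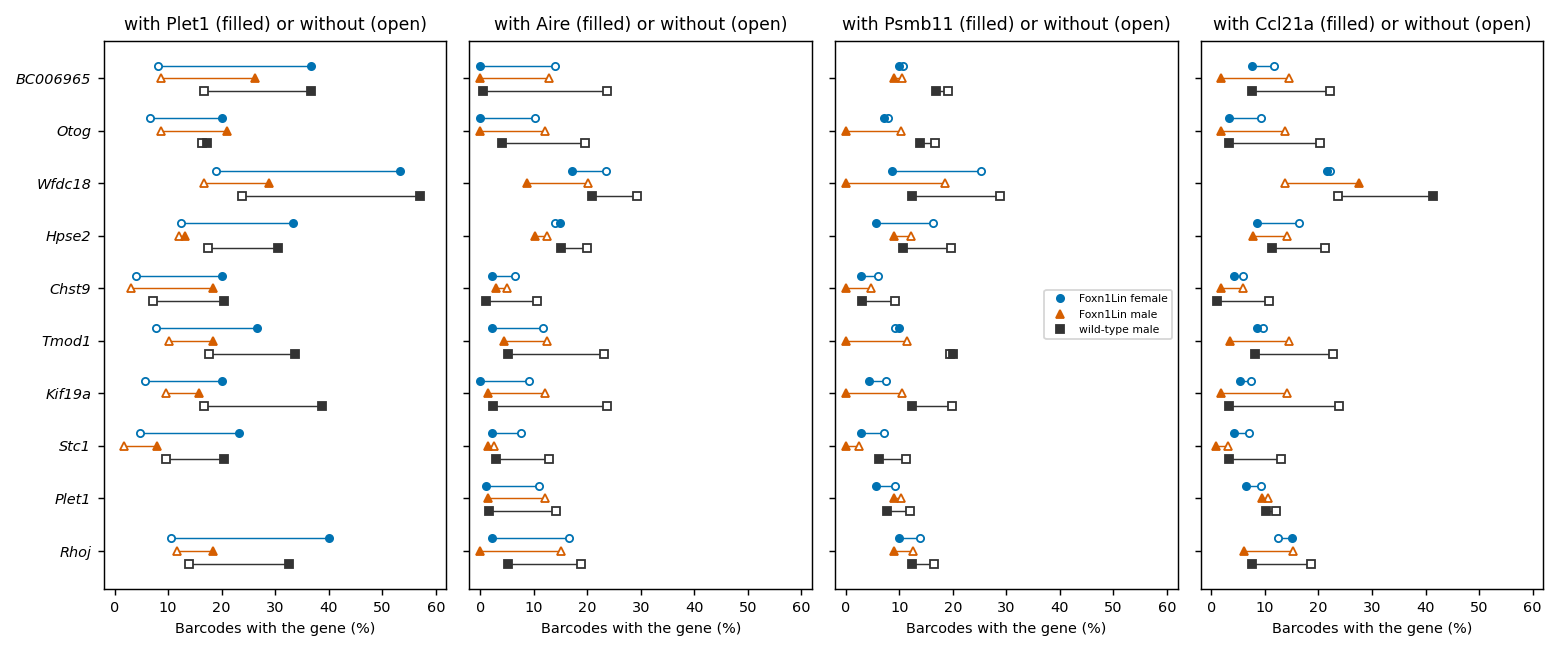
Share of epithelial-gated barcodes (%) with each gene among barcodes with (filled) and without (open) Plet1, Aire, Psmb11 or Ccl21a, thinned to 4000 UMIs, with 1 symbol shape per library. BC006965 and Otog are at or near 0% in Aire-positive barcodes, and most members stand to the right in Plet1-positive ones.

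Psmb11-positive barcodes (70, 11 and 65) differed less. BC006965 was in 10.0%, 9.09% and 16.9% of them and in 10.7%, 10.5% and 19.1% of the rest, a difference not detectable at this depth. Wfdc18 was less frequent in Psmb11-positive barcodes of Foxn1Lin female and wild type, at 8.57% and 12.3% against 25.3% and 28.9%, and Foxn1Lin male had too few to compare.

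With Ccl21a (93, 116 and 186 positive barcodes), some members differed in the male libraries. Otog was in 1.72% and 3.23% of Ccl21a-positive barcodes of Foxn1Lin male and wild type against 13.7% and 20.2% of the negative ones, and Kif19a in 1.72% and 3.23% against 14.1% and 23.9%. In Foxn1Lin female, Otog was in 3.23% against 9.30% and Kif19a in 5.38% against 7.36%, with overlapping intervals. Wfdc18 went the other way, at 27.6% and 41.4% of Ccl21a-positive against 13.7% and 23.7% of negative barcodes, and was level in Foxn1Lin female (21.5% and 22.1%). Plet1 was in 6.45%, 9.48% and 10.2% of Ccl21a-positive and in 9.30%, 10.5% and 12.0% of negative barcodes, with overlapping intervals.

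The label aaTEC1-like was checked on 4 of the other markers the study read in these cells or in dense epithelial areas, comparing member-rich barcodes with those that held none of the 10 genes. A gene was counted as higher or lower where its CPM, with 5 added, differed at least 2-fold in all 3 libraries, as 3.1% (383, higher) and 7.5% (928, lower) of 12366 other genes did. The median log2 fold over these genes was -0.15, -0.15 and -0.14. Epcam, 1 of the 4 markers, was higher (1431, 2616 and 1419 against 506, 1125 and 513 CPM), but the gate had selected both sets of barcodes on it, so it checks nothing. Of the other 3, Cldn3 and Krt8 were higher: Cldn3, a claudin of tight junctions, was at 360, 418 and 287 CPM against 51.9, 41.1 and 24.9, and Krt8, a keratin of simple epithelia, at 3790.1, 4217 and 2867 against 1829, 1298 and 1052. Krt5, a basal keratin, was neither, at 283, 183 and 337 against 181, 303 and 328 CPM. By protein staining of the dense areas, the study saw the product of Krt5 in most epithelial cells, that of Krt8 in some and that of Krt14 in none. A fold in RNA against other barcodes is a different measure, and by it Krt5 did not set member-rich barcodes apart. The study found Cldn3 by comparing its own cells of this kind with other TEC, so that gene is not independent evidence. Further markers read there stood in other lists: Krt14 and the class II gene H2-Aa were lower, and Enpep, which encodes the surface protein Ly51, was neither (14.5, 5.27 and 22.1 against 39.5, 11.5 and 28.8 CPM).

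Junction genes stood with Cldn3. Of 7 epithelial junction genes, 3 were higher and 0 lower, among them Cldn4 (186, 370 and 273 against 29.1, 82.3 and 72.4 CPM) and Cdh1, which encodes E-cadherin (1211, 1254 and 1316 against 396, 521 and 536). Of 13 measured heparan sulfate genes, 2 were higher, the sulfotransferase gene Hs3st1 and Sdc4, which encodes the surface proteoglycan syndecan-4 (972, 1503 and 1307 against 346, 399 and 290.3 CPM).

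Few relatives of other members passed the rule. Otoa, which encodes otoancorin of the inner ear, was the 1 measured gene of its list and was higher (157, 123 and 81.1 against 8.50, 0.288 and 2.08 CPM). None of 3 tropomodulins and leiomodins, 3 kinesins and the 1 other stanniocalcin, Stc2, was higher or lower. Of 3 WAP domain genes 1, Slpi, was lower, as were Chst1 and Chst2 of 6 carbohydrate sulfotransferases.

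Of the listed genes of thymic function, some were lower in member-rich barcodes by that rule and none was higher. All 4 mTEC2 genes were lower: Aire was at 4.82, 0 and 10.9 against 215, 209 and 231 CPM, and Cd80, a costimulatory ligand, at 0, 1.05 and 6.96 against 122, 134 and 145. Of 10 genes of thymopoiesis and antigen presentation, 6 were lower and 0 higher, including Foxn1 (32.1, 21.1 and 23.3 against 93.5, 61.8 and 94.6 CPM), the chemokine Ccl25 (190, 17.9 and 80.1 against 1595, 250 and 895) and the class II gene H2-Aa (726, 749.7 and 1252 against 2413, 3178 and 2759). The other 4, Dll4, Cxcl12, Il7 and Kitl, were neither. Il7, a cytokine for thymocytes, was at 78.7, 78.0 and 106 against 66.2, 84.5 and 109 CPM, and Kitl, the ligand of the receptor Kit, was at 112, 80.1 and 40.2 against 69.5, 59.8 and 96.95. Of 5 cortical genes 3 were lower. Psmb11 missed the rule in Foxn1Lin male alone (9.49 against 23.6 CPM), and Enpep missed it in both male libraries.

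**Figure D5:**
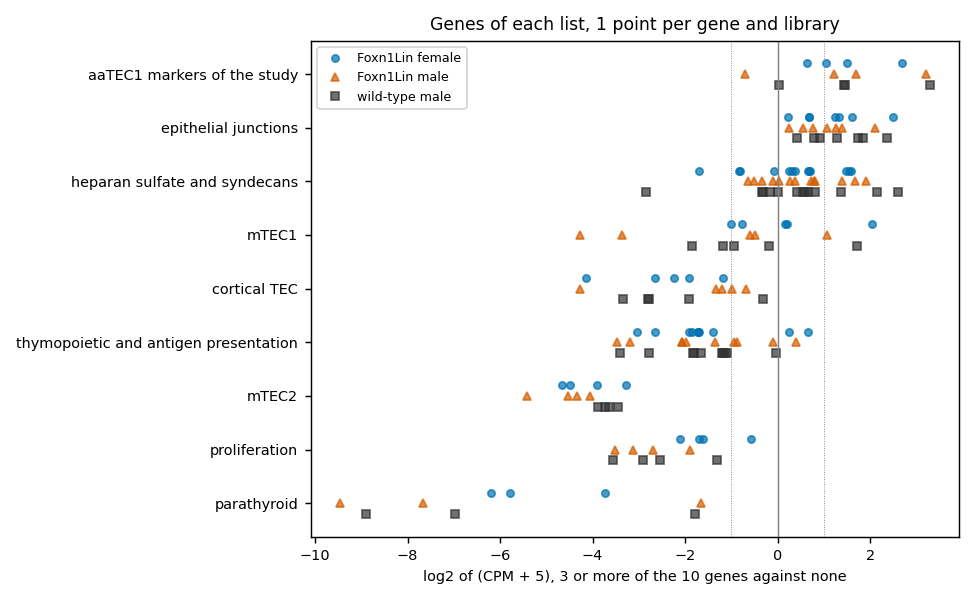
Log2 fold in CPM (5 added) of list genes between epithelial-gated barcodes with 3 or more of the 10 genes and those with none, 1 point per gene and library, with dotted lines at 2-fold. The 4 mTEC2 genes lie to the left of the dotted line in all 3 libraries, and 3 of 7 junction genes lie to the right.

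Of 5 mTEC1 genes, Ly6a was higher (1481, 2074 and 2849 against 356, 984 and 860.4 CPM) and Krt14 lower (88.3, 10.5 and 55.5 against 182, 296 and 132). The number of mTEC1 genes called depended on the minimum of 3 members: at 2 or more, 0 were higher and 0 lower, and at 4 or more 1 was higher and 2 lower. At 2 or more, the genes called lower also fell to 3 of 10 for thymopoiesis and antigen presentation, to 0 for the M-cell, goblet, basal, fibroblast and sulfotransferase lists and to 309 over all genes, while the mural genes called higher went from 1 to 2. Proliferation genes were lower for 3 of 4. Of 5 M-cell genes 3 were lower and Tnfaip2 was higher (308, 605 and 369 against 60.7, 70.7 and 63.3 CPM). Fcgbp was lower of 2 goblet genes, Ly6d of 4 basal genes and Insm1 of 3 neuroendocrine genes, and 0 of 4 tuft genes passed the rule. The tuft gene Dclk1 was in 41.9%, 32.6% and 29.5% of member-rich barcodes against 5.13%, 14.4% and 14.3%. Its level differed 2-fold in Foxn1Lin female alone (244 against 23.7 CPM). Avil, L1cam and Pou2f3 had no common direction over the 3 libraries. Foxj1, a regulator of motile cilia, was at 0, 0 and 1.19 CPM in member-rich barcodes, beside the ciliary motor gene Kif19a.

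The barcodes without members were a mixture. They held the parathyroid hormone gene Pth at 3968, 4987 and 5820.1 CPM, against 67.5, 2.11 and 7.16 CPM in member-rich barcodes, and all 3 measured parathyroid genes were lower in the latter. Their part in the folds above was not tested.

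Stromal markers were read beside Rhoj, since that gene is so much higher outside the epithelium. Pecam1 and Pdgfra are at 0 by the gate. None of the 6 endothelial genes reached 1% of barcodes in each library, and Cdh5, Kdr, Tie1, Egfl7 and Plvap were at 0 to 4.82 CPM in member-rich barcodes. Of 4 measured fibroblast genes 1, Col1a1, was lower and none higher, and Dcn was at 344, 163 and 172 against 508, 219 and 263 CPM. Of 6 mural genes, Notch3 was higher (89.9, 79.1 and 97.8 against 11.2, 5.46 and 19.5 CPM) and Myh11 lower (22.5, 13.7 and 9.34 against 93.2, 48.0 and 85.2), and Rgs5 was at 111, 119 and 326 against 55.2, 53.5 and 123. Of 3 measured hematopoietic genes 1, Laptm5, was lower, as was 1 of 3 measured mesothelial genes, Nkain4. The mesothelial gene Msln was neither, with opposite directions in the 2 Foxn1Lin libraries, at 488, 16.9 and 76.3 against 48.6, 61.8 and 61.1 CPM, and was in 44.2%, 6.52% and 9.33% of member-rich barcodes against 5.13%, 7.43% and 4.46%. Upk3b, on which the mesothelial gate rests, was at 6.42, 0 and 0.398 CPM in member-rich barcodes, and the part of Msln-positive barcodes in the results was not tested. Member-rich barcodes had a median of 9507, 16534 and 19579 UMIs before thinning against 13895, 13935 and 16812 in barcodes without members, and after thinning 1907, 1921 and 2003 genes against 1910.0, 1917 and 2020.0. Their median mitochondrial share was higher in all 3 libraries, at 2.60%, 4.91% and 4.81% against 2.14%, 3.44% and 3.47%, and its part in the folds was not tested.

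The lineage reporter was not used to choose the members. After thinning, it was found in 43 of 43 member-rich barcodes of Foxn1Lin female (100%, interval 91.8% to 100%) and in 81.0% (74.8% to 86.3%) of those without members. In Foxn1Lin male it was in 93.5% (82.1% to 98.6%) against 87.1% (81.7% to 91.4%), intervals that overlap. Its level was 1932 and 2735 CPM in member-rich barcodes and 874 and 1025 CPM in those without members, with no overlap of intervals in either library. It did not increase steadily with the number of members: barcodes with 1 or 2 members had it at 530 CPM in 74.3% of barcodes in Foxn1Lin female, a level below that without members, and at 1089 CPM in 90.3% in Foxn1Lin male. Barcodes with 0 Epcam had the reporter in 12.8% and 15.3%, and empty droplets held it at 236 and 579 CPM. The wild type, which lacks the transgene, had 0 UMIs of it in 844 barcodes, which allows a share of up to 0.355%.

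The 10 genes most like the members were named by the lowest over the 3 libraries of the share in member-rich divided by the share in barcodes without members, with 0.5% added to each. In that order they were Agr3, Cldn14, Ephb1, Ppp2r2b, Prss33, Paqr6, Bricd5, Sox10, Grb14 and Gpc6. Agr3, which encodes a protein disulfide isomerase of the endoplasmic reticulum, was in 41.9%, 39.1% and 25.9% of member-rich and in 0% of barcodes without members, where a count of 0 allows up to 1.54%, 1.49% and 0.893%. Cldn14, a claudin known from the inner ear, was in 23.3%, 39.1% and 34.7% against 0%, 0.495% and 0.298%. Ephb1, an ephrin receptor, was in 37.2%, 39.1% and 38.9% against 0.513%, 0% and 0%. Sox10, a transcription factor known from neural crest and secretory glands, was in 18.6%, 21.7% and 25.9% against 0.513%, 0.495% and 0.298%. Gpc6, which encodes a glypican with heparan sulfate chains, was at 715, 606 and 932 against 16.1, 10.4 and 14.4 CPM.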

How the data were processed

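The deposited matrices give raw counts of UMIs for each feature in each barcode, once for barcodes called as cells and once for every barcode. Cell Ranger, run by the authors on GRCm38 with 8 transgenes added, produced these counts (7.0.1 in the header of the called matrices, 4 in the other). Total counts of the called barcodes were 53366016 (Foxn1Lin female), 33386621 (Foxn1Lin male) and 61258534 (wild type). Groups came from the sample titles.

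No further filter was applied to called barcodes. The members, gates and gene lists were chosen with earlier results of these data known. Barcodes were thinned to 4000 UMIs with a fixed seed, and shallower ones were left out. Shares have Clopper-Pearson intervals and summed counts exact Poisson intervals, both 95% (scipy 1.17.1), and a count of 0 was read as allowing 3 counts. Empty droplets were uncalled barcodes of 124 to 493, 22 to 87 and 26 to 103 UMIs. The automatic threshold of Scrublet (scanpy 1.11.5) marked 0, 15 and 1 barcodes, and doublets were removed only in an alternative.

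The text names all 10 members, the 10 genes most like them by a rule of size, and up to 4 genes of a list, more where a list was read for markers of other cells. Endothelial-gated and fibroblast-gated sums were compared with the quasi-likelihood test of edgeR 4.0.16 (R 4.3.3, TMM, filterByExpr, adjusted p at most 0.05, two-sided), checked on simulated counts, with DESeq2 1.42.0 as an alternative. The replicates within a gate are libraries of different groups, so the p-values measure the spread between these libraries. One of the gene lists is not reported here.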

Additional observations from a re-analysis of the deposited data

Results flagged for a closer look

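Rhoj differed between the libraries in where it was higher outside the epithelium. The log2 ratio of its CPM in endothelial-gated to that in fibroblast-gated barcodes was -1.03 in Foxn1Lin female and -0.71 in Foxn1Lin male, but 0.19 in wild type, and in each library the exact counting interval lay on 1 side of 0. With 1 library per group this difference between libraries was not tested.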

How the results depend on the processing

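Of 630 values recomputed under another setting, 519 kept their direction and stayed within the counting interval, the 1.5-fold limit or the side of the threshold that applied, 107 moved and 4 changed sign. Of 30 CPM levels of members in the epithelial gate, 11 left their counting interval without the highest Scrublet scores, 11 at 1 or more Epcam UMIs, 8 at 3 or more and 1 without low-quality barcodes. Rhoj in Foxn1Lin male moved furthest at 1 or more, from 74.1 to 121 CPM. Shares of barcodes depend on depth, so thinning moved them too. The share of barcodes with Plet1 was 15.4%, 20.6% and 21.6% without thinning (Foxn1Lin female, Foxn1Lin male, wild type), 16.2% in Foxn1Lin male at 6000 UMIs and 6.31% in wild type at 2000 UMIs. The wild-type share of barcodes with 3 or more members was 19.1% at 2000 UMIs. In the endothelial to fibroblast test, Otog changed sign without the highest Scrublet scores (log2 0.14), and Wfdc18 without them (0.016), with no library block (0.028) and without the wild-type library (0.23, in the range -0.37 to 0.23 over the libraries left out), none of them past the threshold in any setting. Leaving out each library in turn gave 2 members called each time and 3249 to 6526 genes called in all, against 6103. It was 3392 without Foxn1Lin male and 3249 without the wild type. DESeq2 called 2 members too. The genes called lower in barcodes with 3 or more members (928) were 309 with 2 or more and 1057 with 4 or more. No paired analysis was possible because each group has 1 library, so that the groups share fewer than 2 replicate numbers; this concerns comparisons between groups, while the library block of the endothelial to fibroblast test pairs the 2 gates within a library. The limits on the members are set by counting: in Foxn1Lin male, Stc1 rests on 98 UMIs in the epithelium.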
